A study of Danio rerio with 16 samples.

Results

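The genes described here are 9 marker genes of neutrophils, *mpx*, *lyz*, *npsn*, *lect2l*, *srgn*, *csf3r*, *ncf1*, *cebpa*, and *coro1a*, which were chosen by gene symbol among the 32520 genes of the count table. All 9 symbols were found, and all 9 genes passed the filter on low counts that left 23555 genes for testing. Matrix metalloproteinase genes that neutrophils also express were left out of the set by this choice. The RNA came from whole zebrafish embryos, so the 9 genes were read in a mixture of all embryonic tissues and not in sorted neutrophils.

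The study sequenced bulk RNA of embryos that lacked a functional *fbn3* gene and of wild-type (WT) embryos, to ask which genes the loss of *fbn3* affects at stages when the heart and vessels are forming. The groups were *fbn3*-/- embryos at 2 days post fertilization (dpf) (n = 5 libraries), WT embryos at 2 dpf (n = 3), *fbn3*-/- embryos at 1 dpf (n = 3), and WT embryos at 1 dpf (n = 4). Each library was made from 10 pooled embryos. The mutated gene is called *fbn2b* in the sample labels and in the count table (genotypes fbn2b -/- and fbn2b +/+), and *fbn3* in the name of the line. The mutation is a small CRISPR/Cas9 deletion, and the mutant lines were backcrossed to AB wild-type fish. The study lists more than 1 *fbn3* deletion line, and its RNA sequencing methods do not name the line used. Founder lines were made in fish that carried an endothelial *kdrl* or a neutrophil *mpx* reporter transgene, and the sources used here do not give whether the sequenced embryos carried a reporter or how severe the phenotype of the pooled embryos was.

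Neutrophils are phagocytic granulocytes that arise from myeloid precursors, first around the yolk and later in the blood-forming tissue of the tail, and that migrate to wounds and infection. During maturation they fill their granules with enzymes such as peroxidase and lysozyme, and the granule genes are widely used in zebrafish to count them. Granulocyte colony-stimulating factor acts through its receptor on myeloid precursors to raise neutrophil output, C/EBP transcription factors drive the granulocyte program, and the NADPH oxidase complex makes the oxidative burst. In bulk RNA of whole embryos, fewer cells of a type and less RNA per cell cannot be told apart.

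Library totals ranged between 41473603 and 179887580 counted reads. Levels are given as CPM, read counts relative to the library total after scaling by the trimmed mean of M values (TMM), and FDR is the Benjamini-Hochberg adjusted p of edgeR's quasi-likelihood fit over all genes tested. The mutated gene *fbn2b* was read at 15.1 to 20.8 CPM in *fbn3*-/- embryos and 164 to 239 CPM in WT embryos at 2 dpf (log2 fold change -3.51, FDR 1.22e-05 in edgeR), and at 19.5 to 28.7 CPM and 103 to 337 CPM in these genotypes at 1 dpf (log2 fold change -3.02, FDR 0.00149). In a principal component analysis of the 500 most variable genes, the first component (74.2% of the variance) separated the stages. The second (12.005%) separated 9 libraries with lower library numbers from 6 with higher ones. These 2 sets are not a batch that the labels state, and the split was placed with earlier results of these data known. The higher-numbered libraries held replicates 4 and 5 of *fbn3*-/- embryos at 2 dpf, replicates 2 and 3 of WT embryos at 2 dpf, replicates 4 and 5 of WT embryos at 1 dpf, and no *fbn3*-/- library at 1 dpf. Genotype values within each set of library numbers are therefore given beside the pooled values at 2 dpf for *mpx*, *lyz*, *lect2l*, *csf3r*, and *cebpa*. The lower-numbered set held 1 WT library at 2 dpf. At 1 dpf every *fbn3*-/- library was lower-numbered and the WT libraries came from both sets. Genotype and library set were thus partly mixed at that stage.

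The granule genes, as *mpx*, *lyz*, *npsn*, *lect2l*, and *srgn* are called here, were the members that changed most between the stages, in both genotypes. Whether the product of *lect2l* is stored in granules was not tested. *mpx*, which encodes the peroxidase of the granules, had 35.1, 35.8, 33.5, 36.0, and 45.2 CPM in the *fbn3*-/- libraries at 2 dpf and 26.6, 58.8, and 32.5 CPM in the WT libraries at 2 dpf, against 8.93, 1.93, and 3.00 CPM in *fbn3*-/- and 10.995, 7.33, 3.97, and 3.12 CPM in WT embryos at 1 dpf. Every 2 dpf library lay above every 1 dpf library of its genotype, and WT replicate 2 at 2 dpf was the highest of all 15. The change was 8.10-fold in *fbn3*-/- embryos (log2 fold change 3.02, SE 0.47, FDR 5.93e-05) and 6.19-fold in WT embryos (log2 fold change 2.63, SE 0.44, FDR 0.000122). Here and for the members below, the share of all genes whose stages lay apart is not given. Of all genes tested, 29.2% in *fbn3*-/- and 27.0% in WT embryos were called higher at 2 dpf.

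*lyz*, which encodes lysozyme, had 3.85, 2.68, 2.6997, 2.17, and 2.94 CPM in the *fbn3*-/- libraries and 3.48, 5.13, and 4.34 CPM in the WT libraries at 2 dpf, against 1.35, 0.275, and 0.0499 CPM in *fbn3*-/- and 0.831, 0.479, 0.360, and 0.218 CPM in WT embryos at 1 dpf. Stages did not overlap within either genotype, and the 1 dpf values rested on few reads, 5 to 91 in the *fbn3*-/- and 9 to 38 in the WT libraries. *lyz* was 5.50-fold higher at 2 dpf in *fbn3*-/- embryos (log2 fold change 2.46, SE 0.52, FDR 0.000799) and 9.24-fold higher in WT embryos (log2 fold change 3.21, SE 0.51, FDR 7.75e-05).

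*npsn* encodes nephrosin, an astacin-family metalloprotease of fish granulocytes. It had 26.9, 27.6, 27.7, 27.7, and 35.5 CPM in *fbn3*-/- and 20.6, 35.3, and 22.7 CPM in WT embryos at 2 dpf, against 9.04, 1.94, and 1.69 CPM in *fbn3*-/- and 6.73, 3.34, 4.24, and 2.98 CPM in WT embryos at 1 dpf. Replicate 1 was the highest library of both genotypes at 1 dpf, and the stages did not overlap. The log2 fold change between stages was 2.81 (SE 0.45, FDR 7.34e-05) in *fbn3*-/- and 2.61 (SE 0.43, FDR 0.000107) in WT embryos.

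*lect2l* encodes a leukocyte chemotaxin-like protein. It had 14.7, 18.9, 14.4, 19.1, and 26.2 CPM in *fbn3*-/- and 13.5, 9.37, and 15.4 CPM in WT embryos at 2 dpf, against 6.09, 2.46, and 1.33 CPM in *fbn3*-/- and 3.80, 2.46, 2.22, and 2.52 CPM in WT embryos at 1 dpf. The stages did not overlap, and the WT library that was highest for *mpx*, *lyz*, and *npsn* at 2 dpf was the lowest for *lect2l*. The log2 fold change between stages was 2.54 (SE 0.38, FDR 3.66e-05) in *fbn3*-/- and 2.24 (SE 0.37, FDR 0.000116) in WT embryos. *srgn*, which encodes serglycin, the proteoglycan that packs granule proteins, had 16.6, 15.01, 15.7, 15.5, and 16.1 CPM in *fbn3*-/- and 13.0, 17.2, and 13.0 CPM in WT embryos at 2 dpf, against 5.33, 1.64, and 0.937 CPM in *fbn3*-/- and 5.31, 2.58, 2.35, and 2.25 CPM in WT embryos at 1 dpf. Its 2 dpf libraries all lay above those at 1 dpf, with log2 fold changes of 2.62 (SE 0.41, FDR 5.55e-05) in *fbn3*-/- and 2.22 (SE 0.39, FDR 0.000185) in WT embryos.

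**Figure D1:**
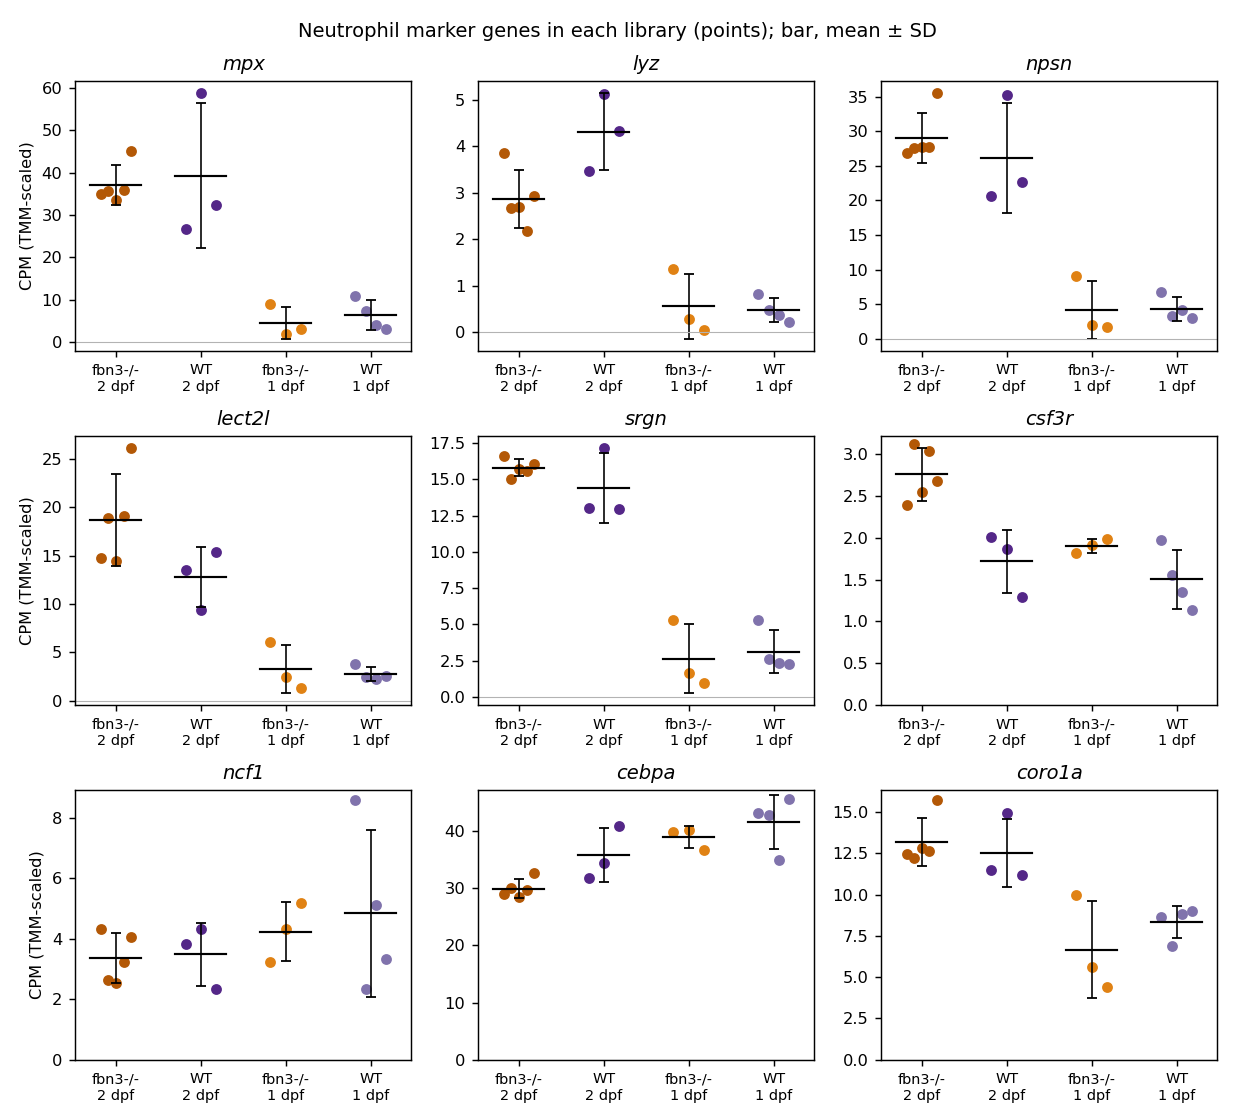
Level of each of the 9 genes (y axis, TMM-scaled CPM, a separate linear scale for each gene) in the *fbn3*-/- libraries at 2 dpf (n = 5), the WT libraries at 2 dpf (n = 3), the *fbn3*-/- libraries at 1 dpf (n = 3), and the WT libraries at 1 dpf (n = 4). Points are libraries in replicate order, the line is the mean, and the bar is 1 SD. *mpx*, *lyz*, *npsn*, *lect2l*, and *srgn* lie higher in every 2 dpf library than in any 1 dpf library of the same genotype. The share of all genes whose stages lay apart is not given, but 29.2% in *fbn3*-/- and 27.0% in WT embryos were called higher at 2 dpf. *csf3r* lies higher in all 5 *fbn3*-/- libraries than in the 3 WT libraries at 2 dpf, which 3.74% of all genes tested also showed.

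The members outside these granule genes changed less between the stages. *coro1a* encodes coronin, an actin-binding protein of all leukocytes. It had 12.5, 12.2, 12.8, 12.6, and 15.7 CPM in *fbn3*-/- and 11.5, 14.9, and 11.2 CPM in WT embryos at 2 dpf, against 9.97, 5.61, and 4.41 CPM in *fbn3*-/- and 8.63, 6.91, 8.81, and 9.001 CPM in WT embryos at 1 dpf. Stages did not overlap in either genotype, and *coro1a* was 1.99-fold higher at 2 dpf in *fbn3*-/- (log2 fold change 0.99, SE 0.21, FDR 0.000881) and 1.51-fold higher in WT embryos (log2 fold change 0.59, SE 0.21, FDR 0.0270). The WT call of *coro1a* was lost without WT replicate 2 at 1 dpf (FDR 0.0794) and without WT replicate 2 at 2 dpf (FDR 0.0949).

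*csf3r*, the receptor for granulocyte colony-stimulating factor, had 2.40, 3.12, 2.55, 3.04, and 2.67 CPM in *fbn3*-/- and 2.00, 1.86, and 1.29 CPM in WT embryos at 2 dpf, against 1.82, 1.91, and 1.98 CPM in *fbn3*-/- and 1.97, 1.56, 1.36, and 1.14 CPM in WT embryos at 1 dpf. The stages were apart in the *fbn3*-/- libraries and overlapped in the WT libraries. *csf3r* rose 1.45-fold in *fbn3*-/- embryos (log2 fold change 0.54, SE 0.19, FDR 0.0224), and its log2 fold change in WT embryos was 0.17 (SE 0.21, FDR 0.506). The *fbn3*-/- call did not outlast the loss of single libraries: its FDR was 0.0515 to 0.0652 without *fbn3*-/- replicate 1, 2, or 3 at 1 dpf or *fbn3*-/- replicate 4 at 2 dpf. The difference between the 2 stage changes was 0.37 (SE 0.28, FDR 0.905), so they were not shown to differ.

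*cebpa* encodes a C/EBP transcription factor of granulocyte precursors that also acts in liver. It had 29.005, 30.0, 28.4, 29.7, and 32.6 CPM in *fbn3*-/- and 31.8, 34.5, and 40.9 CPM in WT embryos at 2 dpf, against 39.9, 40.2, and 36.7 CPM in *fbn3*-/- and 43.1, 42.8, 34.9, and 45.7 CPM in WT embryos at 1 dpf. All 5 *fbn3*-/- libraries at 2 dpf lay below all 3 at 1 dpf, and the WT stages overlapped. *cebpa* fell by 0.38 on the log2 scale in *fbn3*-/- embryos (SE 0.10, FDR 0.00513), and its log2 fold change in WT embryos was -0.22 (SE 0.11, FDR 0.100). *ncf1* encodes the organizing cytosolic subunit of the NADPH oxidase. It had 4.33, 2.62, 2.54, 3.22, and 4.07 CPM in *fbn3*-/- and 3.81, 4.32, and 2.32 CPM in WT embryos at 2 dpf, against 3.23, 4.31, and 5.16 CPM in *fbn3*-/- and 8.59, 2.33, 5.12, and 3.32 CPM in WT embryos at 1 dpf. The stages of *ncf1* overlapped in both genotypes, with log2 fold changes of -0.35 (SE 0.34, FDR 0.389) in *fbn3*-/- and -0.47 (SE 0.36, FDR 0.281) in WT embryos.

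Between 1 and 2 dpf, 7 of the 9 members thus rose and 1 fell in *fbn3*-/- embryos at FDR under 0.05, against 29.2% of all genes tested that rose and 27.0% that fell. In WT embryos 6 members rose and 0 fell, against 27.0% and 27.6% of all genes tested. A log2 fold change above 2 at that FDR was reached by 5 members (*mpx*, *lyz*, *npsn*, *lect2l*, and *srgn*) in both genotypes, against 9.35% of all genes in *fbn3*-/- and 7.92% in WT embryos. The median log2 fold change of the members was 2.46 in *fbn3*-/- and 2.22 in WT embryos, where the medians over all genes were 0.00 and -0.04.

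The calls of the granule genes in WT embryos depended on the libraries used. In the lower-numbered libraries alone, which hold 1 WT library at 2 dpf and 2 at 1 dpf, the log2 fold changes in WT were 1.60 for *mpx* (FDR 0.0652), 2.53 for *lyz* (FDR 0.0503), 2.12 for *npsn* (FDR 0.0559), and 1.81 for *srgn* (FDR 0.0708), none of them called, while *lect2l* (2.19, FDR 0.0216) and *cebpa* (-0.38, FDR 0.0324) were called. In the higher-numbered libraries alone, 6 members rose in WT embryos. In *fbn3*-/- embryos all 5 granule genes were called whichever library was left out, but the size of their change turned on the 1 dpf libraries. Without *fbn3*-/- replicate 1 at 1 dpf the log2 fold changes were 3.89 for *mpx* (14.8-fold), 4.30 for *lyz* (19.8-fold), 4.01 for *npsn* (16.1-fold), 3.34 for *lect2l* (10.1-fold), and 3.66 for *srgn* (12.6-fold). Without *fbn3*-/- replicate 3 at 1 dpf, that of *lyz* was 1.78 (3.43-fold). The order of the genotypes in the size of the *lyz* change thus depended on 1 library.

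**Figure D2:**
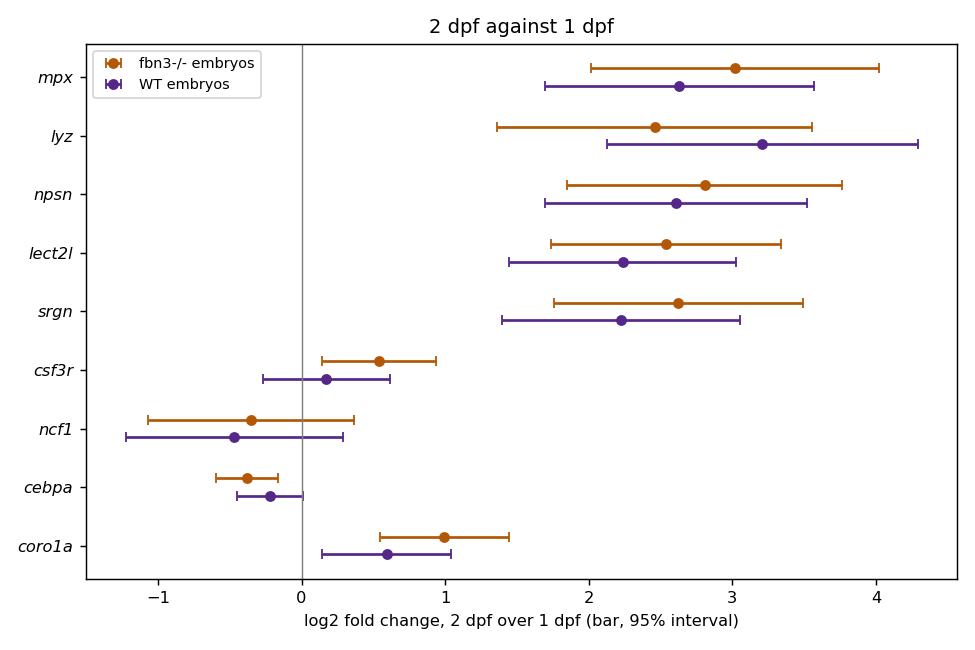
Change of each of the 9 genes between the stages (x axis, log2 fold change of 2 dpf over 1 dpf) in *fbn3*-/- embryos (5 against 3 libraries, upper point of each pair) and WT embryos (3 against 4 libraries, lower point), with 95% intervals from edgeR's quasi-likelihood fit. The 5 granule genes lie between 2.22 and 3.21 in both genotypes, and the intervals of *ncf1* include 0 in both.

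Between genotypes at 2 dpf, none of the 9 members was called, and *csf3r* was the member with the clearest difference. In edgeR, 0 of 9 members differed between *fbn3*-/- and WT embryos at an FDR under 0.05, against 0.233% of all genes tested. An unadjusted p under 0.05 was reached by 2 members, *csf3r* (higher) and *cebpa* (lower), against 10.4% of all genes. DESeq2, limma-voom, the edgeR likelihood ratio test, and the legacy quasi-likelihood method also called 0 members. Of the 9 members 5 had positive and 4 had negative log2 fold changes, with a median of 0.07, where the median over all genes was 0.01.

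*csf3r* averaged 2.76 ± 0.31 CPM in *fbn3*-/- embryos (SD, n = 5) and 1.72 ± 0.38 CPM in WT embryos (SD, n = 3) at 2 dpf. All 5 *fbn3*-/- libraries lay above all 3 WT libraries, which 3.74% of all genes tested also showed. The exact 2-sided permutation test on log2 CPM gave p = 0.0179, the smallest that 5 against 3 libraries allow. This p rests on the same values as the separation and is not separate evidence. The ratio was 1.64-fold (log2 fold change 0.71, 95% interval 0.32 to 1.101) with an adjusted p of 0.160 over all genes in edgeR's quasi-likelihood test. The log2 fold change was 0.41 in the lower-numbered libraries, which hold 1 WT library at 2 dpf, and 0.82 in the higher-numbered libraries. The same sign in both sets followed from the separation of the genotypes. Over the 29 alternative settings the FDR of *csf3r* stayed above 0.05, between 0.0525 with DESeq2 and 0.813 without WT replicate 3, the lowest WT library. The summed level of 7 pan-leukocyte genes was 158 to 215 CPM in *fbn3*-/- and 166 to 179 CPM in WT embryos, and that of 11 macrophage genes was 44.3 to 60.8 CPM and 38.5 to 47.0 CPM in these genotypes. More than any other gene, *arhgdig* carried the pan-leukocyte sum, at 113 ± 13.2 CPM in *fbn3*-/- and 113 ± 5.06 CPM in WT embryos, and without it, a choice made after the values were seen, the sum was 58.4 to 81.8 CPM in *fbn3*-/- and 54.5 to 63.4 CPM in WT embryos. Of the 7 pan-leukocyte genes 6 had positive log2 fold changes, with a median of 0.25. Over all genes tested, 12158 of 23555 had positive values, and the median was 0.01. The part of these cells in the *csf3r* difference was not tested.

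The granule genes did not share a direction at 2 dpf. *lyz* averaged 2.87 ± 0.62 CPM in *fbn3*-/- (SD, n = 5) and 4.32 ± 0.83 CPM in WT embryos (SD, n = 3), and 4 of the 5 *fbn3*-/- libraries lay below all 3 WT libraries. Its log2 fold change was -0.62 (95% interval -1.40 to 0.17, FDR 0.586 in edgeR), -0.21 in the lower-numbered and -0.97 in the higher-numbered libraries. *lect2l* averaged 18.7 ± 4.75 CPM in *fbn3*-/- and 12.8 ± 3.10 CPM in WT embryos, with a log2 fold change of 0.55 (95% interval -0.15 to 1.24, FDR 0.586), 0.22 in the lower-numbered and 0.80 in the higher-numbered libraries. Neither gene was called.

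*mpx* averaged 37.1 ± 4.63 CPM in *fbn3*-/- and 39.3 ± 17.1 CPM in WT embryos at 2 dpf. The WT spread came from replicate 2 (58.8 CPM), all *fbn3*-/- libraries lay between the lowest and the highest WT library, and the log2 fold change was -0.08 (95% interval -0.92 to 0.76, FDR 0.960 in edgeR). Without that library it was 0.30 (FDR 0.920), and within the lower-numbered and higher-numbered libraries it was 0.36 and -0.22. *npsn* (29.1 ± 3.61 CPM in *fbn3*-/- and 26.2 ± 7.97 CPM in WT embryos) had a log2 fold change of 0.15 (95% interval -0.66 to 0.96), and *srgn* (15.8 ± 0.61 and 14.4 ± 2.41 CPM) one of 0.14 (95% interval -0.59 to 0.86).

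Of the other members at 2 dpf, *cebpa* averaged 29.9 ± 1.62 CPM in *fbn3*-/- and 35.7 ± 4.71 CPM in WT embryos, and 4 of 5 *fbn3*-/- libraries lay below all WT libraries. Its log2 fold change was -0.26 (95% interval -0.47 to -0.04, unadjusted p = 0.0238, FDR 0.398 in edgeR), -0.15 in the lower-numbered and -0.34 in the higher-numbered libraries. Of 12 liver and yolk genes, fixed because *cebpa* is also a liver gene, 10 had positive log2 fold changes, where 12158 of all 23555 genes did. Of the 12, 0 were called, against 0.233% of all genes. The fibrinogen gene *fga* was at 318 ± 44.6 CPM in *fbn3*-/- and 217 ± 29.4 CPM in WT embryos (log2 fold change 0.55, FDR 0.100). The summed level of the 12 genes was 9155 to 13396 CPM in *fbn3*-/- and 8804 to 10885 CPM in WT embryos, and its part in the *cebpa* value was not tested. *coro1a* (log2 fold change 0.07, 95% interval -0.35 to 0.49) and *ncf1* (-0.05, 95% interval -0.77 to 0.67) overlapped between genotypes.

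At 1 dpf, 0 of 9 members differed between *fbn3*-/- and WT embryos at FDR under 0.05 in edgeR, against 0.00425% of all genes (1 gene, *fbn2b*), and 0 had an unadjusted p under 0.05, against 7.34% of all genes. DESeq2 and limma-voom called 0 members too, and all 9 members overlapped between the genotypes. The log2 fold changes were -0.47 for *mpx*, -0.33 for *coro1a*, -0.26 for *srgn*, -0.17 for *ncf1*, -0.10 for *cebpa*, -0.05 for *npsn*, 0.13 for *lyz*, 0.25 for *lect2l*, and 0.34 for *csf3r*. Their median was -0.10, where the median over all genes was -0.03, and the 95% intervals of *mpx* (-1.46 to 0.52) and *lyz* (-1.34 to 1.60) were the widest at this stage.

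The 1 dpf values of the granule genes turned on *fbn3*-/- replicate 1. In this library *npsn* was read at 9.04 CPM, against 1.94 and 1.69 CPM in the other *fbn3*-/- libraries, and it was the highest of the 3 for *mpx*, *lyz*, *lect2l*, *srgn*, and *coro1a* as well. Without it the log2 fold changes at 1 dpf were -1.34 for *mpx* (FDR 0.238), -1.71 for *lyz* (FDR 0.315), -1.25 for *npsn* (FDR 0.116), -0.56 for *lect2l* (FDR 0.555), -1.30 for *srgn* (FDR 0.116), and -0.74 for *coro1a* (FDR 0.0982). None was called, against 0.317% of all genes in that fit, and 5 members had an unadjusted p under 0.05, against 12.1% of all genes in that fit. Leaving out *fbn3*-/- replicate 3 instead turned the log2 fold changes of *npsn* to 0.36 and of *srgn* to 0.18. Leaving out WT replicate 1 turned them to 0.21 and 0.08. The values at 1 dpf thus gave no stable direction for *npsn* and *srgn*, and *lyz* and *lect2l* also changed sign under some of 28 alternatives. Log2 fold changes of *mpx* (-1.34 to -0.11) and *coro1a* (-0.74 to -0.09) were negative under all of these alternatives, and neither gene was called in any.

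The difference between the genotype effects at the stages was tested as an interaction. Of the 9 members 0 passed an FDR of 0.05 in edgeR, against 0.00425% of all genes, and 0 had an unadjusted p under 0.05, against 5.51% of all genes. DESeq2 and limma-voom called 0 members as well. The largest interaction values were -0.75 for *lyz* (SE 0.79), 0.40 for *coro1a* (SE 0.30), and 0.40 for *srgn* (SE 0.55). These values also turned on *fbn3*-/- replicate 1 at 1 dpf. Without it the interaction was 1.43 for *srgn*, 1.40 for *npsn*, 1.25 for *mpx*, 1.102 for *lect2l*, 1.09 for *lyz*, and 0.81 for *coro1a*, so that *lyz* changed sign. In that fit 0 members passed an FDR of 0.05, against 0.0209% of all genes, and 5 (*srgn*, *npsn*, *mpx*, *lect2l*, and *coro1a*) had an unadjusted p under 0.05, against 8.32% of all genes.

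**Figure D3:**
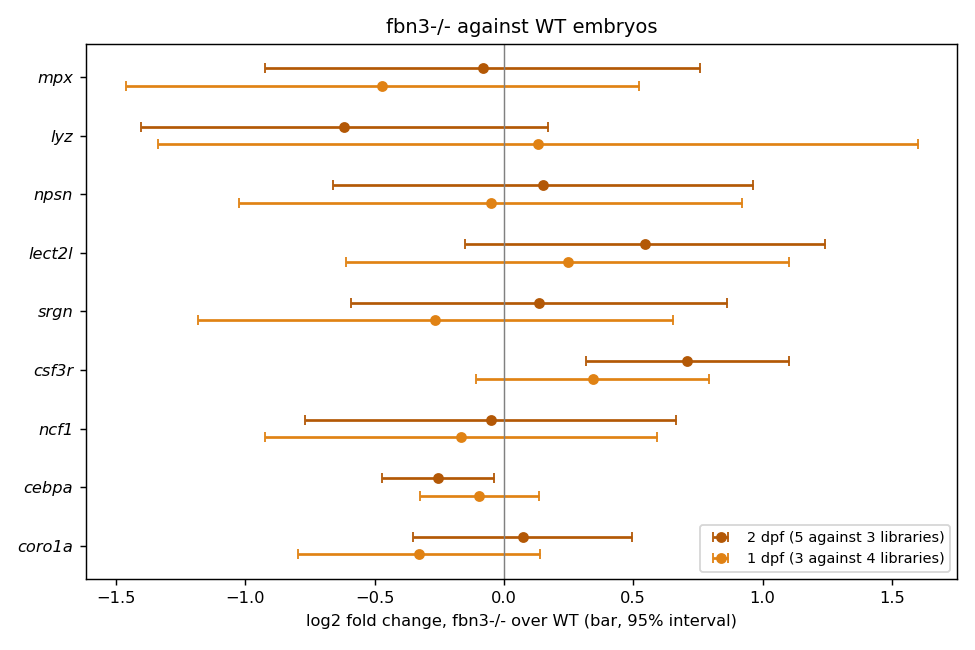
Difference of each of the 9 genes between genotypes (x axis, log2 fold change of *fbn3*-/- over WT) at 2 dpf (5 against 3 libraries, upper point of each pair) and at 1 dpf (3 against 4 libraries, lower point), with unadjusted 95% intervals from edgeR's quasi-likelihood fit. The intervals of *csf3r* (0.32 to 1.101) and *cebpa* (-0.47 to -0.04) at 2 dpf lie to 1 side of 0, and no gene passed an FDR of 0.05.

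The spread between libraries of 1 group was itself uneven over the members. In *fbn3*-/- embryos at 1 dpf the coefficient of variation was 125% for *lyz*, 98.8% for *npsn*, 89.6% for *srgn*, 81.7% for *mpx*, and 75.6% for *lect2l*, but 4.43% for *csf3r* and 5.02% for *cebpa*. The median over all genes with a mean of at least 1 CPM was 10.1% in this group. That set leaves out *lyz*, whose mean was 0.560 CPM there, and genes of like abundance were not compared. At 2 dpf the median over these genes was 12.8% in the *fbn3*-/- libraries. *srgn* (3.83%), *cebpa* (5.43%), *coro1a* (11.01%), *csf3r* (11.3%), *npsn* (12.4%), and *mpx* (12.5%) lay below it. *lyz* (21.5%), *ncf1* (24.5%), and *lect2l* (25.4%) lay above it. The WT libraries at 2 dpf varied most for *mpx*, at 43.6%, where the median over genes was 13.3%.

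Within groups the granule genes moved together at 1 dpf. The mean log2 deviation of *mpx*, *lyz*, *npsn*, and *lect2l* from their group means was 1.52, -0.45, and -1.07 in *fbn3*-/- replicates 1, 2, and 3, and 0.78, 0.03, -0.24, and -0.57 in WT replicates 1, 2, 4, and 5. These libraries had the same order on the first principal component, the one that separated the stages, at -42.1, -62.0, and -67.0 in the *fbn3*-/- and -40.2, -47.4, -49.5, and -55.3 in the WT libraries, where 2 dpf libraries lay between 39.3 and 54.2. Libraries with more granule gene RNA at 1 dpf thus lay nearer to the 2 dpf libraries, and whether the pools differed in exact age was not tested. At 2 dpf the mean deviation was smaller, between -0.15 and 0.29 in *fbn3*-/- and between -0.24 and 0.25 in WT libraries.

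Pairs of members were also compared by Pearson's r of these deviations over 15 libraries, given as a description since all genes share the libraries, their depth, and their library set. At 1 dpf (7 libraries) r among the granule genes ranged from 0.717 for *mpx* and *lect2l* to 0.979 for *lect2l* and *srgn*. It was 0.960 for *lyz* and *lect2l*, and 0.957 for *npsn* and *srgn*. At 2 dpf (8 libraries) r was 0.982 for *mpx* and *npsn*, 0.948 for *npsn* and *coro1a*, and 0.875 for *mpx* and *srgn*. *lyz* had lower r, of 0.499 with *mpx* and 0.444 with *npsn*, and *lect2l* had r of -0.22 with *mpx* and -0.60 with *srgn*. *lect2l* thus followed the other granule genes among the 1 dpf libraries, but not over the 8 libraries of both genotypes at 2 dpf. Among the 5 *fbn3*-/- libraries at 2 dpf, *lect2l* and *mpx* had the same order, from replicate 3 (14.4 and 33.5 CPM) to replicate 5 (26.2 and 45.2 CPM). *lyz* and *srgn* were highest in replicate 1 and did not share that order. WT replicate 2 was the highest library for *mpx* (58.8 CPM) and the lowest for *lect2l* (9.37 CPM). The r without this library is not given.

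**Figure D4:**
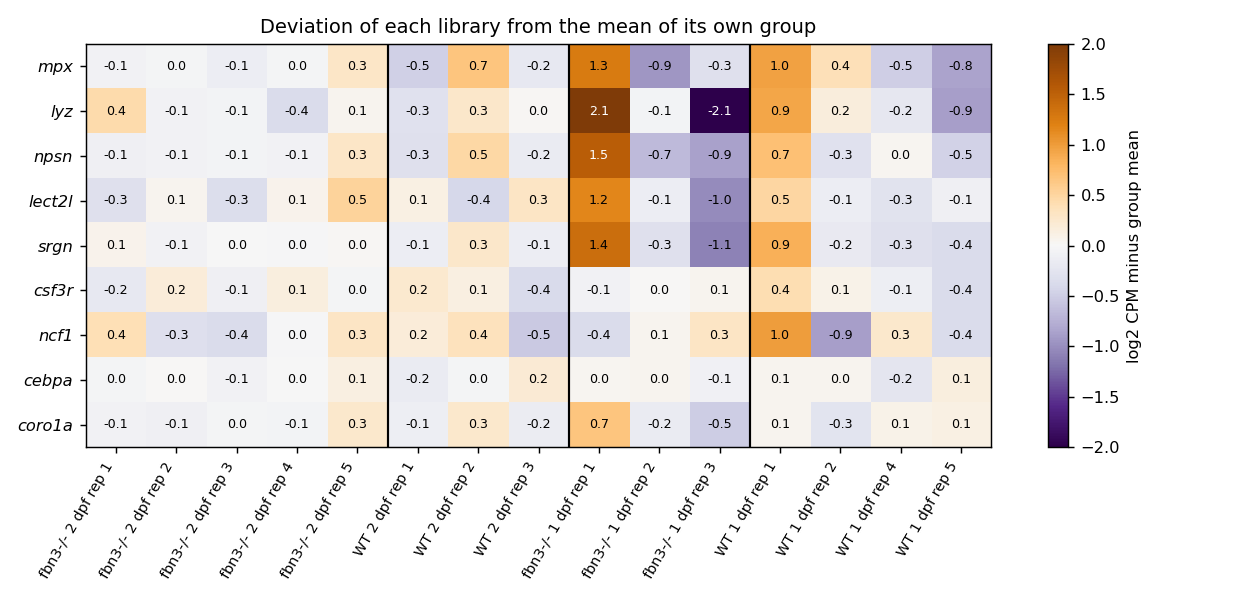
Deviation of each library (columns, grouped by genotype and stage) from the mean of its own group for each of the 9 genes (rows), in log2 CPM, with the value printed in each cell and the color scale from -2 to 2. In *fbn3*-/- replicate 1 at 1 dpf the 5 granule genes and *coro1a* lie above the group mean, while *csf3r*, *ncf1*, and *cebpa* do not share that excess.

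The genes most like the granule genes were sought among 14596 other genes with a group mean of at least 5 CPM, by r between their deviations and the mean deviation of *mpx*, *lyz*, *npsn*, and *lect2l* over the 15 libraries. Of the members outside this mean, *srgn* had r of 0.972, *coro1a* 0.792, *cebpa* 0.232, *csf3r* 0.198, and *ncf1* 0.050. Without *fbn3*-/- replicate 1 at 1 dpf, r was 0.914 for *srgn*, 0.527 for *csf3r*, 0.502 for *ncf1*, 0.342 for *coro1a*, and 0.273 for *cebpa*, so only the first place of *srgn* held. The 5 other genes with the highest r were *dct* (0.970), a melanin synthesis enzyme, *aep1* (0.968), *neflb* (0.961), a neurofilament gene, *cpa5* (0.955), a carboxypeptidase used as a mast cell marker in zebrafish, and *arr3a* (0.951), a cone arrestin. Of these 5, *cpa5* alone stood in a blood cell list used here. An r over 0.8 was found in 191 genes (1.31% of those compared), where the median r was 0.01. For *dct* r was 0.992 among the 1 dpf and 0.386 among the 2 dpf libraries. The likeness thus came mainly from the 1 dpf libraries, and it says nothing of shared control.

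The wider neutrophil and leukocyte gene lists gave the setting of these values. Of 5 NADPH oxidase genes outside the members, 5 had positive log2 fold changes between genotypes at 2 dpf, with a median of 0.44. Over all genes, 12158 of 23555 were positive, and the median was 0.01. Of these 5 genes 0 were called, against 0.233% of all genes. In the interaction 0 were called and 2 had an unadjusted p under 0.05 in edgeR, against 5.51% of all genes. *cybb*, the membrane-bound catalytic subunit of the NADPH oxidase, was thus not called between genotypes at 2 dpf. It had 6.96 ± 1.05 CPM in *fbn3*-/- and 4.94 ± 1.15 CPM in WT embryos (SD, n = 5 and 3), with a log2 fold change of 0.51 (FDR 0.461). Between the stages *rac2*, a small GTPase that activates the complex, and *cyba*, the partner of *cybb* in the membrane, were called higher at 2 dpf in both genotypes, with log2 fold changes of 0.81 and 1.52 in *fbn3*-/- and 0.41 and 0.65 in WT embryos. The *ncf1* subunit was not called between stages.

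Of 12 granulocyte factors and signals, 0 were called between genotypes at either stage, against 0.233% of all genes at 2 dpf and 0.00425% at 1 dpf. At 2 dpf 9 of the 12 had positive and 3 had negative log2 fold changes, with a median of 0.11. Over all genes tested, 12158 of 23555 had positive values, and the median was 0.01. *cebp1*, a C/EBP factor of myeloid cells, had 1.21 ± 0.16 CPM in *fbn3*-/- and 0.851 ± 0.389 CPM in WT embryos at 2 dpf (log2 fold change 0.56, unadjusted p = 0.0453, FDR 0.469 in edgeR). The more abundant C/EBP genes *cebpd* (log2 fold change -0.60) and *cebpb* (-0.25) had negative values, and neither was called. At 2 dpf *cebpd* had 27.5 ± 6.30 CPM in *fbn3*-/- and 41.4 ± 30.6 CPM in WT embryos. *cebpb* had 27.4 ± 6.14 CPM and 32.4 ± 16.7 CPM in these genotypes. Each WT mean was raised by 1 library, at 76.6 CPM for *cebpd* (WT median 26.5) and 51.6 CPM for *cebpb* (WT median 23.2). The WT median lay above the *fbn3*-/- median for *cebpd* and below it for *cebpb*. The ligand genes of *csf3r* were low at 2 dpf, *csf3a* at 0.744 CPM in *fbn3*-/- and 0.686 CPM in WT embryos and *csf3b* at 0.201 and 0.121 CPM, and neither was called. Between the stages *gfi1ab*, *runx1*, and *spi1a*, transcription factors of blood cells, rose in both genotypes, and the progenitor factor *myb* fell by 0.93 on the log2 scale in *fbn3*-/- and by 0.77 in WT embryos. Thus 3 of the 12 rose in each genotype, against 29.2% of all genes tested in *fbn3*-/- and 27.0% in WT embryos. In *fbn3*-/- embryos 1 of the 12 fell and in WT embryos 2 fell, against 27.0% and 27.6% of all genes tested. *gfi1aa*, the paralog of *gfi1ab*, fell by 0.70 in WT embryos (FDR 0.0258 in edgeR), and its log2 fold change in *fbn3*-/- embryos was 0.27 (FDR 0.383). At 1 dpf *gfi1aa* had 0.695 ± 0.150 CPM in *fbn3*-/- and 1.24 ± 0.18 CPM in WT embryos (log2 fold change -0.84, unadjusted p = 0.00660, FDR 0.611), and its interaction of 0.98 was not called (FDR 0.889).

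Of 8 receptor and inflammatory mediator genes, *cxcr1* and *cxcr2* did not pass the filter on low counts. Of the other 6, 0 were called between genotypes, against 0.233% of all genes at 2 dpf and 0.00425% at 1 dpf. At 2 dpf 5 of the 6 had positive log2 fold changes, with a median of 0.27, where the median over all genes was 0.01. *tlr5a*, a receptor for flagellin, had 1.73 ± 0.38 CPM in *fbn3*-/- and 1.08 ± 0.23 CPM in WT embryos at 2 dpf (log2 fold change 0.67, unadjusted p = 0.00431, FDR 0.239 in edgeR). Every *fbn3*-/- library lay above every WT library, which 3.74% of all genes tested also showed. Between the stages 4 of the 6 (*itgb2*, *il6r*, *tlr5a*, and *alox5ap*) rose in *fbn3*-/- and 1 (*itgb2*, the leukocyte integrin beta chain, log2 fold change 1.01) in WT embryos. Of all genes tested, 29.2% rose in *fbn3*-/- and 27.0% in WT embryos. The stage change of *tlr5a* was 1.14 in *fbn3*-/- and 0.09 in WT embryos on the log2 scale. Its interaction was 1.05 (unadjusted p = 0.00528, FDR 0.889 in edgeR). An unadjusted p under 0.05 in the interaction was found for 5.51% of all genes. In the interaction 0 of the 6 were called, against 0.00425% of all genes, so the stage changes were not shown to differ between genotypes.

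Markers of other cells in the embryo were read in the same libraries. For the counts below, 0.233% of all genes tested were called between genotypes at 2 dpf. Of 7 pan-leukocyte genes 0 were called between genotypes at 2 dpf, and 4 rose between the stages in *fbn3*-/- and 5 in WT embryos, 3 of them in both. Over all genes tested, 29.2% rose in *fbn3*-/- and 27.0% in WT embryos. Of 11 macrophage genes 0 were called between genotypes at 2 dpf, and 7 rose between the stages in each genotype, 6 of them in both. Of the others, *mpeg1.2* was called in *fbn3*-/- and *c1qc* in WT embryos, and *mfap4* fell in WT embryos. The macrophage gene with the largest difference between genotypes at 2 dpf was *mpeg1.2*, with 6.59 ± 4.37 CPM in *fbn3*-/- and 2.09 ± 0.34 CPM in WT embryos (log2 fold change 1.65, FDR 0.270), whereas its neighbor in name *mpeg1.1* had 7.73 ± 2.05 and 7.54 ± 1.98 CPM. The mast cell marker *cpa5* was at 0 reads in 2 of the 3 *fbn3*-/- libraries at 1 dpf. Of 8 erythroid and 7 epidermal genes 0 were called between genotypes at 2 dpf, and their part in the member values was not tested.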

How the data were processed

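Values were the deposited whole-number read counts per gene, which the authors made, per the submitters' processing notes, with Trim Galore 0.6.6, STAR 2.7.6a on GRCz11, and featureCounts of Subread 2.0.0, without normalization. The libraries came from a stranded total RNA kit, and the strand setting of counting is not given in the sources used here. Of 23 count columns 15 matched a listed sample by name, 8 were not used, and WT replicate 3 at 1 dpf was not analysed here. Library totals are given with the samples.

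Genes were kept with edgeR's filterByExpr (minimum count 10, minimum total 15). All libraries were fitted with 1 coefficient per group by edgeR 4.0.16's quasi-likelihood test (R 4.3.3, TMM scaling), and p-values were Benjamini-Hochberg adjusted (FDR) over 23555 genes. Genes were called at FDR under 0.05. Permutation tests were exact and 2-sided on log2 CPM. Log2 CPM for deviations used a prior count of 2. Labels call the libraries biological replicates, and p-values measure the spread between these libraries. Replicates differed by more than sampling noise.

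Named genes were all 9 members, genes of other lists that a count refers to, and the 5 non-members most like the granule genes. Members and lists were chosen with earlier results of these data known. The alternatives were RLE and upper-quartile scaling, DESeq2 1.42.0, limma-voom (limma 3.58.1), the likelihood ratio test, the legacy quasi-likelihood method, no filter, a CPM filter, library set as covariate, a replicate block, separate stages, lower-numbered libraries, and each library left out. Higher-numbered libraries alone were added after seeing the data. The procedure was tested on simulated data.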

Additional observations from a re-analysis of the deposited data

Results flagged for a closer look

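A library far from the other libraries of its group was looked for in the 9 members in the 2 groups of 4 or 5 libraries, 18 sets of values in all, by the gap to the nearest library as a share of the range. Chance marks about 1 in 20 such sets. In *fbn3*-/- embryos at 2 dpf, replicate 5 stood above the other 4 libraries for *mpx* (45.2 CPM), *npsn* (35.5 CPM), and *coro1a* (15.7 CPM), 3 genes measured in the same library. In WT embryos at 1 dpf, replicate 1 stood above the other 3 for *srgn* (5.31 CPM).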

How the results depend on the processing

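No member was called between genotypes at 2 dpf, at 1 dpf, or in the interaction under any alternative, and leaving out each library in turn gave 0 to 0 members called in these 3 comparisons. For the stage change, leaving out each library gave 5 to 7 members called in WT and 7 to 8 in *fbn3*-/- embryos, against 6 and 8 with all libraries. The lower-numbered libraries alone gave 2 members called in WT embryos, where the fit held 2 libraries at 1 dpf and 1 at 2 dpf. Of 1251 values of single members under an alternative, 1236 kept their direction where called and their side of the threshold, 12 lost a call, and 3 gained one, all in stage changes. With a replicate block over replicates 1 to 3 the numbers called were 0 and 0 between genotypes, 0 in the interaction, 6 in WT and 7 in *fbn3*-/- stage changes, and the same libraries without the block gave 0, 0, 0, 6, and 8. Deviations of same-numbered libraries correlated at 0.16 and 0.02 at 1 dpf and -0.03, -0.16, and -0.11 at 2 dpf. Libraries with unlike numbers reached 0.27 at 2 dpf. These values cannot tell whether same-numbered libraries shared a clutch or a day, which was not tested. The member lost under the block was *csf3r* (FDR 0.0692). The cause of these changes was not tested. The low read counts of *lyz* at 1 dpf add counting error.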

Other observations

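After the values were seen, ratios of read counts between members were formed within each library at 2 dpf, as a description with no test. The ratio of *mpx* to *lect2l* was 1.73 to 2.38 in the 5 *fbn3*-/- libraries, and 1.96, 6.27, and 2.11 in WT replicates 1, 2, and 3, so WT replicate 2 stood alone. The ratio of *mpx* to *npsn* was 1.21 to 1.31 in the *fbn3*-/- libraries and 1.29 to 1.665 in the WT libraries, which overlapped. The ratio of *lyz* to *npsn* was 0.0784 to 0.143 in the *fbn3*-/- libraries and 0.145 to 0.192 in the WT libraries, which did not overlap by a narrow margin. The share of all gene ratios that lay apart between the genotypes is not given, so no conclusion is drawn from this separation.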
